A study of Homo sapiens with 24 samples.

Results

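Claudins and the proteins that join them to the cell cortex make up the tight junction, and 9 genes of this junction were described here across 2 colon cancer cell lines. The set was CLDN1, CLDN2, CLDN3, CLDN4, CLDN7, CLDN12, OCLN, TJP1 and TJP3, found by gene symbol and Ensembl identifier among 33382 genes listed. Of the 9 genes, 8 passed the filter on low counts and were tested with 15302 genes in all, and CLDN2 did not. RNA was sequenced from 24 libraries in 12 groups of 2. Cells of the SW480 line (from a primary colorectal adenocarcinoma) and of the SW620 line (from a lymph node metastasis) carried a lentivirus that expressed Tet2CD, the catalytic domain of the DNA dioxygenase TET2, or an empty vector. All cells had been selected in 5 µg/ml puromycin, and each line and construct was given 4 ng/ml TGFB1, 1 µM RepSox (which blocks ALK5, the type I receptor kinase for TGF-beta) or the solvent DMSO for 24 h. The groups in each line were thus Tet2CD with TGFB1, Tet2CD with RepSox, Tet2CD with DMSO, vector with TGFB1, vector with RepSox and vector with DMSO. Infected cells are described as stably selected cell lines, and no source used here says whether they were pools or clones. The 2 libraries of each group are not described as separate cultures, and the spread behind every p-value may therefore be technical.

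Tight junctions seal the space between neighbouring epithelial cells. Claudins are membrane proteins that assemble into the strands of the seal, and their mix sets how leaky it is. CLDN1, CLDN3, CLDN4 and CLDN7 are counted among the sealing claudins, whereas CLDN2 forms a pore for cations and water. Occludin, from OCLN, is another membrane protein of the strands, and TJP1 (ZO-1) and TJP3 (ZO-3) are scaffolds that tie the strands to actin. In the epithelial to mesenchymal transition, which TGF-beta ligands can drive, repressors of the SNAI and ZEB families bind E-box motifs and lower claudin and occludin transcription, and RepSox blocks the receptor kinase through which these ligands signal. TET2 oxidises methylated cytosines of CG dinucleotides, so the promoters of the claudins that differed most with Tet2CD are shown for their CG content.

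Promoter windows of 300 bases, from 250 bases before to 50 bases after each start, were taken from RefSeq (GRCh38.p14) and all lie on the minus strand. They are those of CLDN1 at chr3:190322397-190322696, CLDN3 at chr7:73770221-73770520, and CLDN7 at chr17:7263164-7263463 and chr17:7262429-7262728. Each is written 5′ to 3′ with every CG dinucleotide in capitals.
CLDN1: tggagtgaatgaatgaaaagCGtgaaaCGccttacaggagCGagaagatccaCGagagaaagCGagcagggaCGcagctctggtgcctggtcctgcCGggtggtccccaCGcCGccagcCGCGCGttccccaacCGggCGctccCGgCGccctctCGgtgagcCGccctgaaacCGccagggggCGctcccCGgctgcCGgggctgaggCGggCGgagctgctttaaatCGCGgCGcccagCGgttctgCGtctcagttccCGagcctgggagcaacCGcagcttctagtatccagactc
CLDN3: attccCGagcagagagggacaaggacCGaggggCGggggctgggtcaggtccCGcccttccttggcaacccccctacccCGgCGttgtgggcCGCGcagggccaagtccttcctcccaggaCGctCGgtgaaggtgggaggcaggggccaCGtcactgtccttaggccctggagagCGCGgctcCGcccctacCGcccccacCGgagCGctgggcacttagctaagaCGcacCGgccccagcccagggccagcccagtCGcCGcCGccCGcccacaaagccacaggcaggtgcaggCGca
CLDN7 window 1: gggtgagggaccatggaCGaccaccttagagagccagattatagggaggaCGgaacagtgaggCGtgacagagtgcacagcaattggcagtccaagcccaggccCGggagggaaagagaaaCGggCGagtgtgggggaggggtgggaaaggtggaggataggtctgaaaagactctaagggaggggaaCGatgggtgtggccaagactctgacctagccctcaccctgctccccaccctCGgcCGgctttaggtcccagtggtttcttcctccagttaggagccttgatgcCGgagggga
CLDN7 window 2: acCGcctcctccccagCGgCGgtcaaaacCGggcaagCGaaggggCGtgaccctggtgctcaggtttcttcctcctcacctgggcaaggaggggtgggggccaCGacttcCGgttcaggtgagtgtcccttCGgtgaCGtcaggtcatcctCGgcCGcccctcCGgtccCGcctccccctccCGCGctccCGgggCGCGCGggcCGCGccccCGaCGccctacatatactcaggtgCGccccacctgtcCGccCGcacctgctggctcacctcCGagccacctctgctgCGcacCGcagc
CLDN1 held 31 CG dinucleotides, CLDN3 held 24, and the CLDN7 windows held 10 (window 1) and 30 (window 2), against a median of 14 over 34943 windows. At least as many CG dinucleotides were found in 20.6% of all windows for CLDN1, in 33.8% for CLDN3 and in 22.4% for window 2 of CLDN7. An E-box (CAGGTG or CACCTG, which are the same motif read on opposite strands) lay in 6 of the 16 windows of the 9 genes and in 20.6% of all windows. Window 2 of CLDN7 held 5 E-boxes, a number reached by 0.0916% of all windows, CLDN3 held 1, and the windows of CLDN1, CLDN4 and CLDN12 held 0. These are matches of letters only. DNA methylation and factor binding were not measured in these libraries.

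Library totals ran from 2146123 to 4410567 expected counts, with a median of 3653712. The 3 SW480-Tet2CD libraries numbered replicate 1 stood apart from the other 21. Ribosomal protein genes took 10.9% to 16.1% of their counts against 6.18% to 10.0% elsewhere, the mean GC content of their counts was 52.5% to 53.6% against 49.5% to 51.7%, and their totals of 2146123 to 2713878 lay under all the others. The tests of Tet2CD against vector in SW480 are therefore given with and without these libraries. Without them each SW480-Tet2CD group has 1 library, so the p-values of those fits rest on the spread of the other groups. The gap between the 2 libraries of a group, as chi-square per degree of freedom, was 14.2 to 38.8 in SW480-Tet2CD and 1.61 to 5.80 elsewhere. All 12 groups share an estimate of spread, so these libraries also enter the p-values of SW620. For Tet2CD in SW620, 48 of 15302 genes were called with all libraries and 643 of 13965 with SW620 libraries alone. TET2, which cannot be told apart from the construct in these counts, was at 270 to 2640 CPM (counts scaled to a common library size) in SW480-Tet2CD and 10.3 to 23.8 CPM in SW480-vector libraries, and at 693 to 1276 CPM in SW620-Tet2CD and 10.5 to 25.0 CPM in SW620-vector libraries. All 8 colon epithelial markers were tested, and their summed level was 7179 to 27207 CPM. Summed fibroblast markers were at 7.92 to 39.8 CPM, blood cell markers at 0 to 7.87 CPM and endothelial markers at 2.82 to 18.8 CPM, with PTPRC, CD3E, HBB and KDR under 1 CPM in every library. TGFB1 raised the TGF-beta target PMEPA1 in both lines, by 1.07 on the log2 scale in SW480 and 0.47 in SW620 (adjusted p = 0.000187 and 0.00581, edgeR). In SW620 libraries labelled RepSox, however, PMEPA1 and TGFBI were higher than in DMSO, by 1.07 and 0.75 on the log2 scale, while CCN2 fell by 1.62 (adjusted p = 2.73e-05, 0.00117 and 0.0417), so these targets went both ways in the libraries that bear the inhibitor's name.

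The 9 genes were present at very different levels, and the mix of the claudins among them differed between the lines. In TPM, a unit that accounts for transcript length, CLDN7 and CLDN4 were level in SW480-Tet2CD cells, at 199 ± 31.2 and 197 ± 52.1 TPM, and CLDN3 came next at 113 ± 21.9 TPM (SD, n = 6 libraries over the 3 treatments). In SW480-vector cells CLDN4 led at 277 ± 49.96 TPM, followed by CLDN7 at 232 ± 22.9 TPM. In SW620, CLDN4 led in both constructs, at 112 ± 41.1 TPM with Tet2CD and 108 ± 17.8 TPM with vector, and CLDN1 came next, at 61.2 ± 24.5 and 77.3 ± 26.0 TPM. CLDN1 was the lowest of the 8 tested genes in SW480, at 4.38 TPM with Tet2CD and 12.6 TPM with vector, whereas CLDN7 was the lowest in SW620-vector cells at 11.82 TPM. CLDN2, the pore-forming claudin, was close to undetected throughout: 15 libraries had no count, the others had at most 2, and a floor of 3 counts stood at 0.680 to 1.398 CPM.

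**Figure D1:**
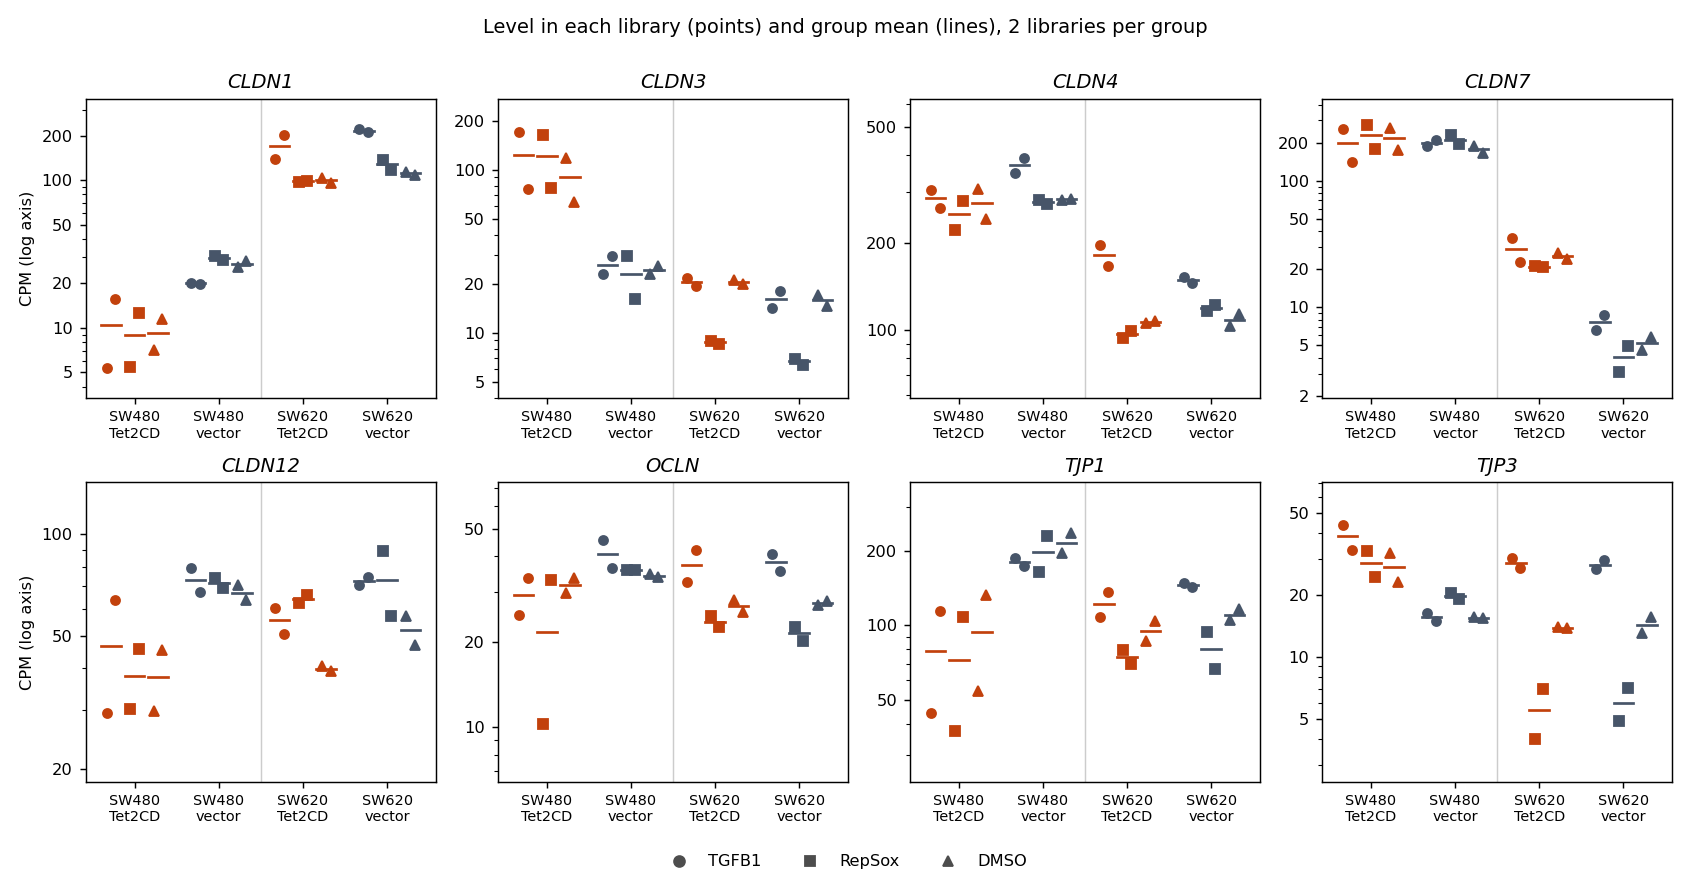
Level of each tested gene in CPM (log axis, points are single libraries) for the 12 groups of line, construct and treatment, with Tet2CD groups left of vector groups. CLDN1 was highest in SW620 and CLDN4 and CLDN7 in SW480, and CLDN3 was highest in the 3 SW480-Tet2CD groups.

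Expressed as a share of the summed TPM of the 6 claudins of the set, CLDN3 made up 21.6% in SW480-Tet2CD cells and 5.44% in SW480-vector cells, and CLDN1 made up 0.809% and 2.11%. In SW480-Tet2CD the CLDN3 share was 20.3% to 29.1% in the replicate 1 libraries and 16.2% to 19.3% in the replicate 2 libraries. CLDN7 made up 13.5% in SW620-Tet2CD cells and 4.46% in SW620-vector cells, while CLDN1 made up 21.7% and 29.0%. CLDN11 and CLDN15 are not in these shares but were expressed. CLDN11 was at 75.1 to 136 CPM with Tet2CD and 53.0 to 80.1 CPM with vector in SW480, and at 103 to 136 CPM with Tet2CD and 88.5 to 115 CPM with vector in SW620. The summed level of the 6 claudins was 532 TPM in SW480-Tet2CD and 610 TPM in SW480-vector cells, and 279 TPM in SW620-Tet2CD and 261 TPM in SW620-vector cells. The sum thus differed less between constructs than did the shares of CLDN3 in SW480 and CLDN7 in SW620. Shares add to a fixed whole, so a higher share of 1 claudin lowers the others.

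**Figure D2:**
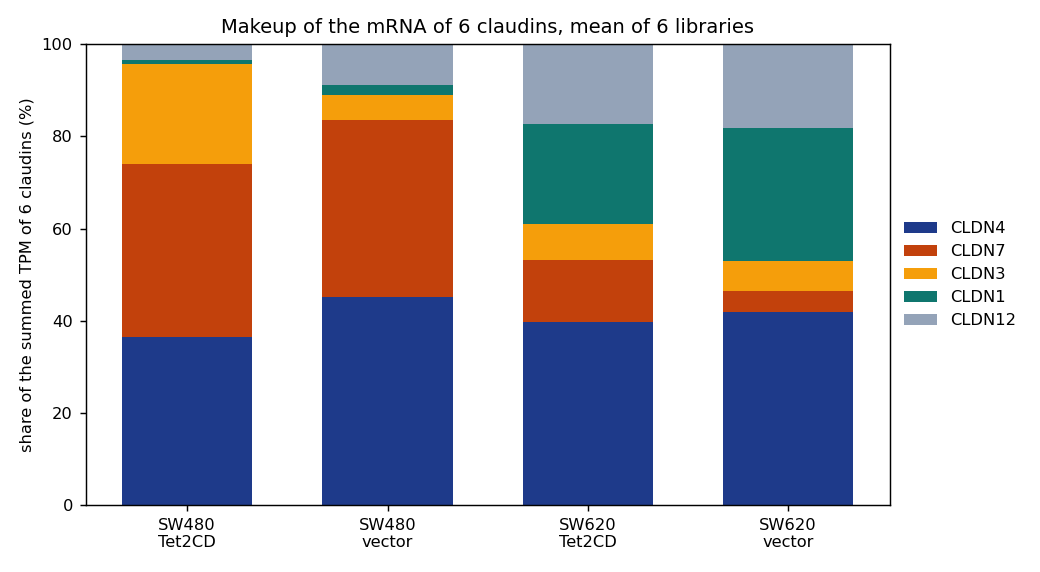
Share of each claudin in the summed TPM of the 6 claudins of the set (percent, mean of 6 libraries over the 3 treatments) for SW480 and SW620 cells with Tet2CD or vector, where CLDN2 is in the sum but too low to draw. CLDN3 took 21.6% in SW480-Tet2CD against 5.44% in SW480-vector cells, and CLDN7 took 13.5% in SW620-Tet2CD against 4.46% in SW620-vector cells. The SW480-Tet2CD means include the 3 replicate 1 libraries.

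Across the 12 groups, CLDN7 spanned the widest range, with the highest group mean 56.9 times the lowest (229 CPM in SW480-Tet2CD with RepSox, 4.03 CPM in SW620-vector with RepSox). CLDN1 spanned 24.0 times (216 CPM in SW620-vector with TGFB1, 9.002 CPM in SW480-Tet2CD with RepSox) and CLDN3 18.5 times (123 CPM in SW480-Tet2CD with TGFB1, 6.66 CPM in SW620-vector with RepSox). The scaffold TJP3 spanned 7.01 times, CLDN4 3.82 times, TJP1 2.96 times, CLDN12 1.96 times and OCLN 1.91 times. Where groups are ranked by mean, 10 of the 11 neighbouring pairs overlapped for CLDN12 and 8 of 11 for OCLN and for TJP1, so most neighbours in the order of these genes were not separated by their 2 libraries. CLDN3, CLDN7 and TJP3 had 7 overlapping neighbour pairs each, CLDN4 had 5 and CLDN1 had 3. All 6 SW620 groups lay above all 6 SW480 groups for CLDN1, and the opposite held for CLDN4 and CLDN7.

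Tet2CD in SW480 cells was compared with vector over the 3 treatments to find which junction genes differ with the TET2 catalytic domain. CLDN3 and TJP3 were higher, CLDN1, CLDN12 and TJP1 were lower, and CLDN4, CLDN7 and OCLN did not pass the test. With 54.5% of all tested genes called in this comparison, 5 of 8 junction genes is close to the background. In these bulk data a lower level cannot be told apart between fewer expressing cells and less RNA per cell.

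CLDN3, a sealing claudin, had 63.8, 97.5 and 171 CPM (lowest, median and highest of 6 libraries) in SW480-Tet2CD cells, against 16.1, 24.3 and 29.7 CPM in SW480-vector cells. Every Tet2CD library lay above every vector library, and the replicate 1 libraries were the highest. The difference was 2.17 ± 0.23 on the log2 scale (SE), or 4.51-fold (adjusted p = 3.85e-06, quasi-likelihood test of edgeR, Benjamini-Hochberg). Without the 3 replicate 1 libraries it was 1.55, with an offset for GC content 1.28, and with both changes 1.20, each past the threshold of 0.05. CLDN3 has the most GC-rich transcript of the 8 tested genes (69.2%), and the part that GC content has in its difference was not tested beyond these fits.

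CLDN1, a sealing claudin that is low in this line, had 5.38, 9.24 and 15.7 CPM in SW480-Tet2CD cells, against 19.8, 27.0 and 30.6 CPM in SW480-vector cells. The groups did not overlap. CLDN1 fell by 1.33 on the log2 scale (SE 0.21, adjusted p = 0.000122, edgeR), and by 0.96 without the 3 libraries, 1.02 with the GC offset and 0.81 with both. CLDN12, a claudin that lacks the usual PDZ-binding tail, had 29.4, 37.7 and 63.8 CPM with Tet2CD, against 63.8, 69.8 and 79.6 CPM with vector, so that the highest Tet2CD library and the lowest vector library met. It fell by 0.79 (SE 0.17, adjusted p = 0.00167, edgeR), by 0.34 with both changes and by 1.69 with limma on log2 TPM.

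CLDN4 and CLDN7, the most abundant claudins of SW480, overlapped between the constructs. CLDN4 had 222, 272 and 306 CPM with Tet2CD, against 272, 282 and 391 CPM with vector (log2 difference −0.19 ± 0.09, adjusted p = 0.091, edgeR). The CLDN4 difference was past the threshold at −0.25 without the 3 replicate 1 libraries (adjusted p = 0.0123), at −0.45 with the GC offset (0.00127), at −0.35 with both (0.000228) and at −0.53 with limma on log2 TPM (0.0104). CLDN7 had 142, 219 and 279 CPM with Tet2CD, against 167, 192 and 228 CPM with vector (0.13 ± 0.16, adjusted p = 0.513, edgeR). The 3 Tet2CD libraries of replicate 1 lay above every vector library and those of replicate 2 below the vector median. Without them the sign of the CLDN7 difference turned to −0.27 (adjusted p = 0.0401), and with the GC offset as well it was −0.41 (adjusted p = 0.000948), so no direction can be given for CLDN7 in SW480.

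Occludin had 10.3, 31.4 and 33.7 CPM in SW480-Tet2CD cells, against 33.8, 35.8 and 45.6 CPM in SW480-vector cells. The groups touched without overlapping, and the OCLN difference of −0.41 ± 0.18 did not pass (adjusted p = 0.0631, edgeR). With the GC offset and without the 3 libraries the OCLN difference was 0.01, and with limma on log2 TPM it was −1.27 and passed (adjusted p = 0.0142). It also passed without SW480-Tet2CD replicate 2 with RepSox (−0.82) or with TGFB1 (−0.51). A partial copy of OCLN lies near the gene on chromosome 5, so its reads may be shared between the copies.

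The ZO scaffolds went opposite ways in SW480. TJP1 had 37.6, 81.3 and 133 CPM with Tet2CD, against 164, 191 and 236 CPM with vector, with no overlap, and fell by 1.26 on the log2 scale (SE 0.26, adjusted p = 0.001, edgeR). The 3 replicate 1 libraries had the lowest values, 37.6 to 54.5 CPM, and without them TJP1 fell by 0.76. TJP3 had 23.1, 32.2 and 43.9 CPM with Tet2CD, against 14.9, 16.0 and 20.3 CPM with vector, again with no overlap, and was 0.87 ± 0.14 higher (1.83-fold, adjusted p = 0.000177, edgeR). Its difference was 0.64 without the 3 libraries and 0.37 with the GC offset. The 5 calls of CLDN1, CLDN3, CLDN12, TJP1 and TJP3 were kept when each of the 24 libraries was left out in turn.

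**Figure D3:**
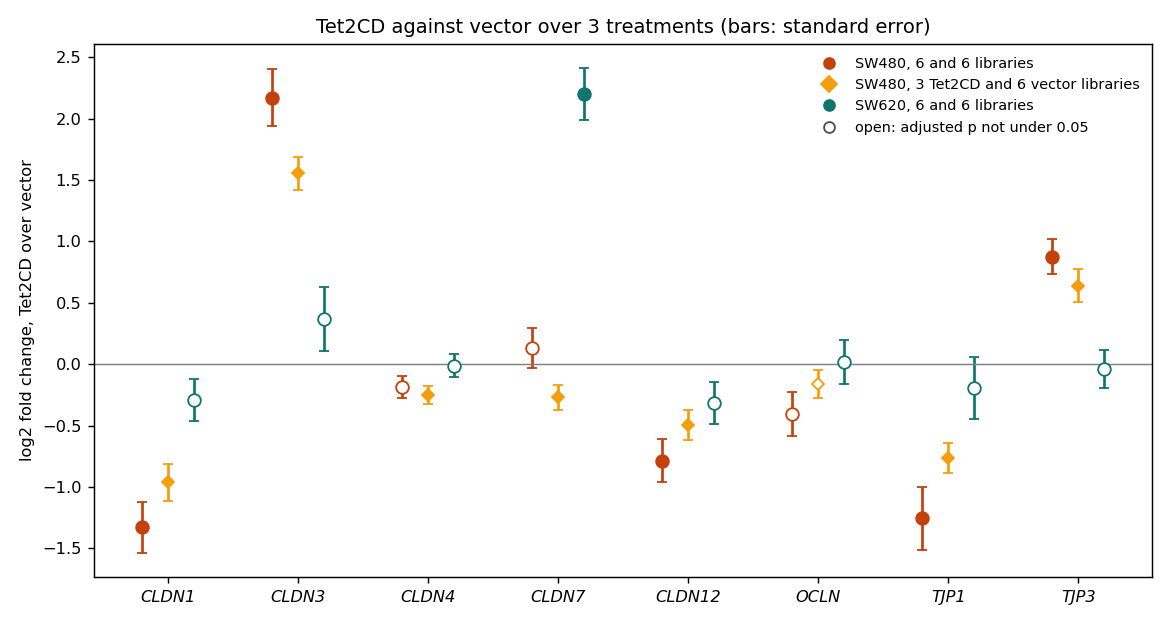
Log2 difference between Tet2CD and vector over the 3 treatments for each tested gene in SW480 and SW620 cells (points with bars of 1 SE, open where the adjusted p was not under 0.05), and the same in SW480 without the 3 replicate 1 libraries (diamonds). In SW480 the CLDN3 difference was 2.17 and the CLDN1 difference −1.33, and in SW620 CLDN7 stood apart at 2.20.

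Beside these differences, 7 of the 8 colon epithelial markers were higher in SW480-Tet2CD cells, where 29.2% of all genes were called higher. Their summed level was 9110 to 27207 CPM (median 13784), against 7179 to 12738 CPM (median 10254) in SW480-vector cells. The marker values of this paragraph include the 3 replicate 1 libraries and are not given without them. Endothelial markers summed to 7.20 to 18.8 CPM against 2.82 to 5.58 CPM, with 2 of 2 tested markers higher, and fibroblast markers to 15.3 to 27.9 CPM against 7.92 to 20.5 CPM, with 1 of 4 tested higher (COL1A1). Blood cell markers summed to 2.07 to 7.87 CPM against 1.79 to 3.23 CPM. All libraries came from cultured cell lines, and whether these marker levels bear on the junction gene differences was not tested.

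Between replicates 1 and 2 of SW480-Tet2CD the junction genes split by the GC content of their transcripts. All 4 genes under 50% GC (40.0% to 44.0%: OCLN, CLDN12, CLDN1 and TJP1) were lower in replicate 1 in all 3 treatments, with median log2 gaps of −1.36 to −0.44. Of the 4 genes at 57.4% to 69.2% GC, CLDN3, CLDN7 and TJP3 were higher in replicate 1 in all 3 treatments, and CLDN4 was not. The 3 genes called lower with Tet2CD in SW480 all belonged to the low-GC set and the 2 called higher to the high-GC set. The gap between replicates thus ran in the same direction as the called differences, and what sets it was not tested.

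**Figure D4:**
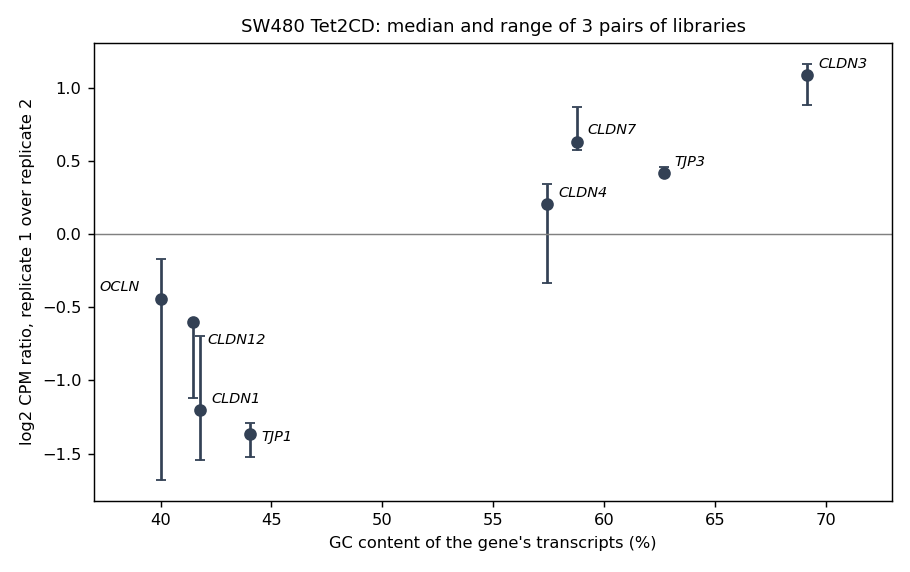
Log2 ratio of replicate 1 to replicate 2 in SW480-Tet2CD cells (y axis, median of the 3 treatments, with bars from the lowest to the highest) against the GC content of each gene's transcripts in percent (x axis). All 4 genes under 50% GC lay below 0, and CLDN3, at 69.2% GC, lay highest with a median of 1.09.

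In SW620 cells, Tet2CD went with a change in 1 junction gene. CLDN7, a sealing claudin, had 20.8, 23.5 and 35.3 CPM in SW620-Tet2CD cells, against 3.09, 5.41 and 8.77 CPM in SW620-vector cells. The lowest Tet2CD library lay well above the highest vector library. The difference was 2.20 ± 0.21 on the log2 scale, or 4.59-fold (adjusted p = 6.27e-05, edgeR), in a comparison where 0.314% of all tested genes (48) passed. It held when any library was left out and under every alternative fit run. Of the CLDN7 windows printed above, window 1 holds 10 CG dinucleotides and window 2 holds 30, and their methylation was not measured in these libraries.

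The other 7 tested genes overlapped between the constructs in SW620. CLDN1 had 96.1, 101 and 203 CPM with Tet2CD, against 109, 128 and 222 CPM with vector (log2 difference −0.29, adjusted p = 0.811, edgeR). CLDN3 had 8.52, 19.7 and 21.7 CPM with Tet2CD, against 6.38, 14.4 and 17.996 CPM with vector (0.37, adjusted p = 0.863). The differences of the remaining genes were −0.32 for CLDN12, −0.19 for TJP1, −0.04 for TJP3, −0.01 for CLDN4 and 0.02 for OCLN. None of these passed in either direction, which does not show that they were equal.

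The size of the Tet2CD difference was itself compared between the lines, SW480 minus SW620, a test in which 20.1% of all genes passed and 5 of 8 junction genes did. CLDN3 differed by 1.80 ± 0.35 and TJP3 by 0.91 ± 0.21, both higher with Tet2CD in SW480 relative to SW620 (adjusted p = 0.00273 and 0.00835, edgeR). CLDN7 differed by −2.07 ± 0.27 (adjusted p = 0.000132), that is, the rise with Tet2CD was found in SW620. CLDN1 differed by −1.04 ± 0.27 (adjusted p = 0.0153) and TJP1 by −1.06 ± 0.36 (adjusted p = 0.0484). CLDN1 missed the threshold with limma on log2 TPM (adjusted p = 0.0523), and TJP1 kept its call in only 4 of the 24 fits that left out 1 library, with adjusted p up to 0.0967. CLDN12, CLDN4 and OCLN differed by −0.47, −0.18 and −0.43 and did not pass. Without the 3 replicate 1 libraries the differences were 1.17 for CLDN3, 0.67 for TJP3, −2.49 for CLDN7, −0.68 for CLDN1 and −0.57 for TJP1, each still past the threshold.

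Tet2CD was also compared with vector within DMSO alone, with 2 libraries a group. In SW480, CLDN3 had 118 and 63.8 CPM with Tet2CD, against 22.9 and 25.6 CPM with vector (1.89 ± 0.40, adjusted p = 0.0103, edgeR), and CLDN1 had 7.06 and 11.4 CPM, against 25.8 and 28.2 CPM (−1.51 ± 0.36, adjusted p = 0.0194). Neither gene overlapped between constructs, and 6.76% of all genes passed. Both calls ended without replicate 1 of SW480-Tet2CD (adjusted p = 0.156 for CLDN3 and 0.211 for CLDN1), without replicate 1 of SW480-vector (0.0874 and 0.0742) and without replicate 2 of SW480-vector (0.101 and 0.145). Leaving out the 3 replicate 1 libraries together leaves 1 SW480-Tet2CD library in DMSO. The differences were then 1.38 for CLDN3, −1.26 for CLDN1 and −0.71 for TJP1, and 1 library gives no spread of its own. The SW480 differences that did not pass in the fit of all libraries were −1.19 for TJP1, −0.83 for CLDN12, 0.81 for TJP3, 0.28 for CLDN7, −0.11 for OCLN and −0.04 for CLDN4. In SW620, CLDN7 had 27.1 and 24.2 CPM with Tet2CD, against 4.64 and 5.86 CPM with vector (2.28 ± 0.37, adjusted p = 0.045, edgeR), with 0.0261% of all genes passing. The CLDN7 call held in 10 of the 24 fits that left out 1 library, and its CPM values did not overlap. The other SW620 differences did not pass, at −0.39 for CLDN12, 0.38 for CLDN3, −0.22 for TJP1, −0.16 for CLDN1, −0.05 for TJP3, −0.04 for OCLN and −0.03 for CLDN4.

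The ligand and the inhibitor were then compared with DMSO over both constructs, to ask which junction genes move with TGF-beta signalling. Both comparisons share the 4 DMSO libraries of a line. In SW620, TGFB1 raised CLDN1, CLDN4 and TJP3 and lowered none, with 15.6% of all genes called and 8.31% higher. The median difference of the 8 genes was 0.48 on the log2 scale, against 0.01 over all genes.

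CLDN1 had 139 and 203 CPM in SW620-Tet2CD and 222 and 211 CPM in SW620-vector cells with TGFB1, against 104 and 96.1 CPM and 114 and 109 CPM with DMSO. All 4 TGFB1 libraries lay above all 4 DMSO libraries, and the difference was 0.87 ± 0.21, or 1.82-fold (adjusted p = 0.00986, edgeR). The CLDN1 call ended without replicate 2 of SW620-Tet2CD with DMSO (adjusted p = 0.0514), of SW620-Tet2CD with TGFB1 (0.0605) or of SW620-vector with DMSO (0.051), and with limma on log2 TPM (0.164). CLDN4 had 196 and 166 CPM with Tet2CD and 152 and 146 CPM with vector after TGFB1, against 105 and 108 CPM and 104 and 113 CPM after DMSO. These libraries were also separate, by 0.61 ± 0.11, or 1.53-fold (adjusted p = 0.00152, edgeR).

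TJP3, the ZO-3 scaffold, was ordered by treatment in SW620. With TGFB1 it had 30.1 and 27.1 CPM in Tet2CD cells and 26.7 and 29.5 CPM in vector cells, with RepSox 3.98 and 7.02 CPM and 4.89 and 7.09 CPM, and with DMSO 13.9 and 13.8 CPM and 12.998 and 15.5 CPM. Every TGFB1 library was above, and every RepSox library below, every DMSO library. TGFB1 raised TJP3 by 1.01 ± 0.18 (2.02-fold, adjusted p = 0.000919, edgeR), and with RepSox it fell by 1.30 (SE 0.20, adjusted p = 0.00105). The remaining genes did not pass with TGFB1 in SW620: the differences were 0.37 for CLDN7, 0.48 for CLDN12, 0.48 for OCLN, 0.38 for TJP1 and 0.01 for CLDN3. OCLN and CLDN12 passed with SW620 libraries alone (adjusted p = 0.00387 and 0.00628) and without the 3 SW480 libraries (0.00515 and 0.00682), where TJP1 passed too (0.0106 and 0.0287).

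RepSox in SW620 lowered CLDN3 and TJP3 and raised no junction gene, with 4.69% of all genes called and 2.68% lower. CLDN3 had 8.95 and 8.52 CPM in SW620-Tet2CD and 6.94 and 6.38 CPM in SW620-vector cells with RepSox, against 21.1 and 20.1 CPM and 17.0 and 14.7 CPM with DMSO. No RepSox library reached a DMSO library, and CLDN3 fell by 1.24 on the log2 scale (SE 0.33, adjusted p = 0.0393, edgeR). The CLDN3 call held in 15 of the 24 fits that left out 1 library. The differences that did not pass were 0.59 for CLDN12, −0.35 for CLDN7, −0.27 for OCLN, −0.40 for TJP1, 0.08 for CLDN1 and −0.01 for CLDN4. With SW620 libraries alone, a fit that called 2861 of 13965 genes, CLDN12 was higher (adjusted p = 0.00372, edgeR) and TJP1 lower (adjusted p = 0.0137).

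**Figure D5:**
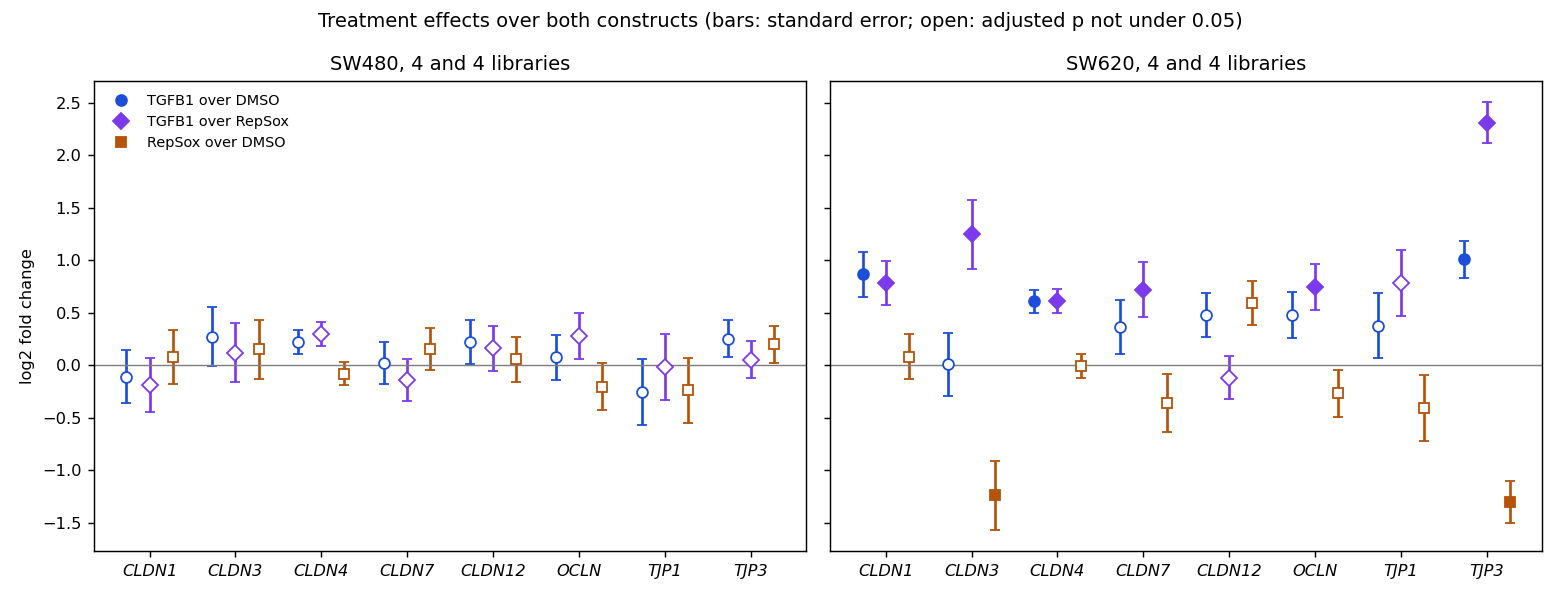
Log2 differences of TGFB1 and of RepSox against DMSO and of TGFB1 against RepSox (points with bars of 1 SE, open where the adjusted p was not under 0.05) for each tested gene in SW480 and SW620 cells, over both constructs and with shared libraries. In SW620 TJP3 stood at 1.01 with TGFB1 and −1.30 with RepSox, and in SW480 no gene passed.

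Set directly against each other in SW620, TGFB1 libraries were higher than RepSox libraries in 6 of 8 junction genes, with 29.1% of all genes called and 14.5% higher. TJP3 differed most, by 2.31 ± 0.19 or 4.96-fold (adjusted p = 5.2e-07, edgeR), followed by CLDN3 at 1.25 ± 0.33 (adjusted p = 0.00833), CLDN1 at 0.78 ± 0.21 (adjusted p = 0.0101) and CLDN4 at 0.62 ± 0.11 (adjusted p = 0.000663). OCLN had 32.6 and 42.0 CPM in Tet2CD and 40.9 and 35.5 CPM in vector cells with TGFB1, against 24.6 and 22.6 CPM and 22.6 and 20.2 CPM with RepSox, a separation of 0.74 ± 0.22 (adjusted p = 0.017). CLDN7 had 35.3 and 22.7 CPM in Tet2CD and 6.61 and 8.77 CPM in vector cells with TGFB1, against 21.1 and 20.8 CPM and 3.09 and 4.97 CPM with RepSox, so it did not overlap within a construct (0.72 ± 0.26, adjusted p = 0.049). TJP1 (0.78 ± 0.31, adjusted p = 0.0726) and CLDN12 (−0.12) did not pass, although TJP1 passed with SW620 libraries alone (adjusted p = 1.72e-05). The CLDN7 call held in 17 and the OCLN call in 20 of the 24 fits that left out 1 library, and CLDN1 lost its call without replicate 2 of SW620-Tet2CD with TGFB1 (adjusted p = 0.0591). In SW620 markers of other cell types differed between the treatments too, past the same threshold. COL1A1, of fibroblasts, was 1.91 higher on the log2 scale with TGFB1 than with RepSox, and VWF, of endothelium, was 0.93 higher, while PECAM1 was lower (−0.94). Against DMSO, VWF was 1.11 and COL1A1 0.83 higher with TGFB1, and with RepSox PECAM1, also of endothelium, was higher (1.39) and COL1A1 lower (−1.08). Summed colon epithelial markers were at 10006 to 12039 CPM with TGFB1, 11478 to 13357 CPM with RepSox and 7726 to 8353 CPM with DMSO, so that neither treatment overlapped DMSO. Summed fibroblast markers were at 23.4 to 39.8 CPM with TGFB1, 12.9 to 20.2 CPM with RepSox and 22.1 to 24.7 CPM with DMSO, and summed endothelial markers at 6.37 to 12.8 CPM with TGFB1, 7.20 to 16.7 CPM with RepSox and 4.22 to 6.76 CPM with DMSO. These too are libraries of a cultured line, and whether the marker levels bear on the junction gene differences was not tested.

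In SW480 no junction gene passed for TGFB1 against DMSO, where 1.05% of all genes were called. CLDN4 had 304 and 264 CPM in SW480-Tet2CD and 348 and 391 CPM in SW480-vector cells with TGFB1, against 306 and 242 CPM and 281 and 283 CPM with DMSO, so only the vector libraries were separate (0.22, adjusted p = 0.431, edgeR). The other 7 differences were −0.25 for TJP1, −0.11 for CLDN1, 0.02 for CLDN7, 0.08 for OCLN, 0.22 for CLDN12, 0.26 for TJP3 and 0.27 for CLDN3. RepSox against DMSO called 0 genes of all tested in SW480 with edgeR, 433 had an unadjusted p under 0.05, and DESeq2 called 1. The differences of the 8 genes lay between −0.24 for TJP1 and 0.20 for TJP3, with OCLN at −0.20, CLDN4 at −0.08, CLDN12 at 0.06, CLDN1 at 0.08, CLDN3 at 0.15 and CLDN7 at 0.16. TGFB1 against RepSox called 2.05% of all genes in SW480 and 0 of the 8 junction genes, with differences of −0.19 for CLDN1, −0.14 for CLDN7, −0.01 for TJP1, 0.06 for TJP3, 0.12 for CLDN3, 0.16 for CLDN12, 0.28 for OCLN and 0.30 for CLDN4. None of the 8 passed in these comparisons without the 3 replicate 1 libraries either.

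Whether the treatments acted differently in the lines was tested as SW480 minus SW620. For RepSox, 1.03% of all genes passed, and TJP3 differed by 1.499 ± 0.27 (adjusted p = 0.0108, edgeR): TJP3 was lower with RepSox in SW620, and its SW480 libraries had 32.7, 24.5, 20.3 and 19.1 CPM with RepSox, against 31.8, 23.1, 15.6 and 15.4 CPM with DMSO. With limma on log2 TPM this TJP3 difference did not pass (adjusted p = 0.186). CLDN3 differed by 1.39 ± 0.43 (adjusted p = 0.168), and passed without the 3 replicate 1 libraries (1.34, adjusted p = 0.00564). The other RepSox differences did not pass, at −0.53 for CLDN12, −0.07 for CLDN4, 0.06 for OCLN, 0.17 for TJP1, 0.51 for CLDN7 and under 0.01 in size for CLDN1. For TGFB1, 2.07% of all genes passed and none of the 8, the nearest being TJP3 at −0.76 ± 0.25 (adjusted p = 0.142) and CLDN1 at −0.97 ± 0.33 (adjusted p = 0.16). The others were −0.63 for TJP1, −0.40 for OCLN, −0.39 for CLDN4, −0.35 for CLDN7, −0.25 for CLDN12 and 0.26 for CLDN3. Without the 3 replicate 1 libraries both of the nearest passed (TJP3 −0.72, adjusted p = 0.0454, and CLDN1 −0.83, adjusted p = 0.0189). The response to TGFB1 was also compared between Tet2CD and vector cells. No junction gene passed in SW480, where 0.0131% of all genes (2) did, nor in SW620, where edgeR called 0 genes, 201 had an unadjusted p under 0.05 and DESeq2 called 1. In SW480 these differences, Tet2CD minus vector, were 0.65 for CLDN1, 0.48 for TJP3, 0.34 for CLDN3, 0.19 for CLDN12, 0.02 for TJP1, −0.28 for CLDN7, −0.34 for CLDN4 and −0.36 for OCLN. In SW620 they were 0.31 for CLDN4, 0.08 for TJP3, −0.03 for CLDN3, −0.04 for TJP1, −0.18 for CLDN1 and −0.36 for CLDN7, and under 0.01 in size for CLDN12 and OCLN.

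The lines themselves were compared within each construct, SW480 against SW620. Under Tet2CD 71.6% of all genes and 5 of the 8 junction genes passed between the lines, and the gap in CLDN7 was 3.10 ± 0.18, or 8.57-fold (adjusted p = 2.75e-10, edgeR). CLDN3 was 7.09-fold, CLDN4 2.18-fold and TJP3 2.38-fold higher in SW480, and the CLDN1 difference was −3.56 ± 0.21 (adjusted p = 2.97e-08, 1.69e-08, 1.22e-06 and 2.16e-10). TJP1 was at −0.21 (adjusted p = 0.477), but at 0.33 without the 3 replicate 1 libraries (adjusted p = 0.0201), and OCLN was at −0.04, but at 0.46 with the GC offset (adjusted p = 0.00262). CLDN12 was at −0.35 (adjusted p = 0.0826), at 0.20 with the GC offset and without the 3 libraries (adjusted p = 0.0935), and at −1.47 with limma on log2 TPM, where it passed (adjusted p = 0.000825). None of TJP1, OCLN and CLDN12 has a settled direction here. Without the 3 libraries the other differences were 2.25 for CLDN3, 1.06 for TJP3, 2.74 for CLDN7, 1.11 for CLDN4 and −3.15 for CLDN1, all past the threshold. With the GC offset CLDN3 was at 1.64 and TJP3 at 0.62, both still past it.

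In vector cells 58.9% of all genes passed, 5 of the 8 junction genes among them, and CLDN7 was 5.17 ± 0.21 higher in SW480 on the log2 scale, or 35.9-fold (adjusted p = 3.6e-12, edgeR). CLDN4 was 2.47-fold, CLDN3 2.03-fold and TJP1 1.80-fold higher in SW480 (log2 differences 1.30 ± 0.09, 1.02 ± 0.25 and 0.85 ± 0.25, adjusted p = 3.13e-09, 0.00221 and 0.0085), while CLDN1 was lower in SW480 (−2.52 ± 0.19, adjusted p = 5.01e-09). TJP3 and OCLN did not pass at 0.34 and 0.39 (adjusted p = 0.0661 and 0.0709), nor did CLDN12 at 0.12. OCLN passed without the 3 replicate 1 libraries, at 0.44 (adjusted p = 0.000421), as did TJP3 at 0.39 (adjusted p = 0.0103). With the GC offset CLDN3 was at 0.55 and TJP3 at 0.09, and CLDN12 passed at 0.31 (adjusted p = 0.000782, 0.543 and 0.0158).

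Other genes of the junction were taken from lists of claudins, membrane proteins and scaffolds. For Tet2CD in SW480, where 29.2% of all genes were higher and 25.3% lower, 6 of 18 other claudins were tested, and CLDN23 and CLDN11 were higher (0.91 and 0.60) and CLDN15 lower (−0.27). Of 8 tested membrane proteins, 2 were higher (MARVELD3, a relative of occludin, at 0.57 and LSR, a protein of tricellular contacts, at 0.33) and 0 lower. Of 21 tested scaffold and polarity genes, 4 were higher and 11 lower, with a median of −0.51 against 0.03 over all genes, and the smallest p were those of ARHGEF2 (GEF-H1, −1.29), MAGI1 (−1.40) and PRKCZ (an atypical protein kinase C, 1.34). Among regulators, the repressor ZEB1 was lower (−1.04) and SNAI1 higher (0.61) of 3 tested, and of 7 epithelial activators CDX2 (1.58) and HNF4A (0.88) were higher and KLF5 lower (−1.08), with 3 higher in all. Without the 3 replicate 1 libraries 2 other claudins, 1 membrane protein, 4 scaffold and polarity genes, 1 repressor and 2 activators were higher, and 0, 0, 10, 0 and 1 lower, and CLDN15 (−0.29), LSR (0.06) and ZEB1 (−0.51) no longer passed. With the GC offset LSR was lower (−0.24, adjusted p = 0.00982), so it has no settled direction, and CLDN23 (0.53) and SNAI1 (0.35) did not pass. In SW620 none of these lists had a gene called with Tet2CD.

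With TGFB1 in SW620, where 15.6% of all genes were called and 8.31% higher, 4 of the 21 scaffold and polarity genes were higher and 0 lower. CGN (cingulin, 0.88), AMOT (0.87) and ARHGEF2 (0.74) were among them, and the list had a median of 0.32 against 0.01 over all genes. CLDN9 (1.96) and CLDN15 (0.63) were higher of 6 other claudins, and CXADR (0.61), a junctional adhesion protein, of 8 membrane proteins. Of 7 epithelial activators, ELF3 (1.67), KLF5 (1.27) and HNF4A (0.38) were higher, and 0 of 3 tested repressors passed. With RepSox in SW620, where 4.69% of all genes were called, none of the claudin, membrane and scaffold lists had a gene called. HNF4A (−0.74) and CDX2 (−1.21) were lower. CLDN9 was low throughout SW620, at 0.251 to 3.67 CPM, so its large log2 difference rests on few counts.

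Against RepSox in SW620, where 29.1% of all genes were called and 14.5% higher, TGFB1 went with 7 higher and 1 lower of 21 scaffold and polarity genes. AMOT (1.70), CGN (1.34) and ARHGEF2 (0.92) were among these. CLDN15 was higher (0.85) and JAM3, a junctional adhesion molecule, lower (−1.43). Of 7 activators 4 were higher, among them ELF3 (1.40), HNF4A (1.12) and CDX2 (0.72). In SW480 PARD3, a polarity scaffold, was higher with TGFB1 than with DMSO (0.47), and PARD3 and YBX3 were higher with TGFB1 than with RepSox (0.48 each), and no other gene of these lists passed. For Tet2CD in SW480 with DMSO, where 6.76% of all genes were called, 2 scaffold and polarity genes were higher and 3 lower. ARHGEF2 (−1.27), MAGI1 (−1.46) and PARD3 (0.76) were among them, and HNF4A (0.88) and CDX2 (1.28) were higher. For the Tet2CD difference between the lines 20.1% of all genes were called. The Tet2CD difference between the lines passed in 3 scaffold and polarity genes upward and 4 downward, among them ARHGEF2 (−1.22), MAGI1 (−1.36) and PARD3 (0.80), and in HNF4A (1.07), CDX2 (1.59) and KLF5 (−0.89), with 3 and 4 scaffold and polarity genes also counted without the 3 replicate 1 libraries. Between the lines the response to TGFB1 differed for ELF3 (−1.25) and the response to RepSox for CDX2 (1.41), and no other gene of these lists passed in a comparison of responses.

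Between the lines, several genes of these lists were close to undetected in 1 line. CGNL1 (paracingulin) was at 0.606 to 2.04 CPM in SW480-Tet2CD and 98.3 to 161 CPM in SW620-Tet2CD cells, and at 0 to 0.881 CPM in SW480-vector and 98.2 to 150 CPM in SW620-vector cells. ILDR1, of tricellular contacts, was at 9.09 to 21.7 CPM in SW480-Tet2CD and 0 to 1.09 CPM in SW620-Tet2CD cells, and at 12.3 to 23.1 CPM in SW480-vector and 0 to 0.675 CPM in SW620-vector cells. CLDN19 was at 0 to 0.292 CPM in SW480-Tet2CD and 1.74 to 4.01 CPM in SW620-Tet2CD cells. Of all genes, 71.6% were called between the lines under Tet2CD and 58.9% with vector, against which the following counts are set. Under Tet2CD, SW480 was higher in 2 other claudins, 4 membrane proteins, 8 scaffold and polarity genes, 0 repressors and 2 activators and lower in 3, 3, 10, 3 and 4, with CLDN9 (2.74), CLDN23 (1.42), CXADR (1.72), LSR (1.14), ARHGEF2 (−2.62), PARD3 (0.96), ZEB1 (−1.63), SNAI1 (−0.74), SNAI2 (−1.24), CDX2 (3.49) and HNF4A (−1.24) among them. With vector the counts were 2, 4, 6, 0 and 3 higher and 2, 3, 5, 3 and 4 lower, with CLDN9 (2.17), CLDN11 (−0.70), CXADR (1.70), LSR (1.06), ARHGEF2 (−1.40), AMOTL2 (2.96), SNAI1 (−1.28), SNAI2 (−2.34), ZEB1 (−1.22), HNF4A (−2.32) and CDX2 (1.90) among them. Without the 3 replicate 1 libraries the counts under Tet2CD were 2, 4, 9, 0 and 3 higher and 2, 3, 9, 2 and 4 lower.

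Genes whose group means moved most like each junction gene were sought over the 12 groups after the mean of each line was taken out. Pearson's r is a description here, since the 12 points were centred within each line and are not independent. The SW480-Tet2CD points include the GC-shifted libraries. For CLDN3 they were TSPAN9 (0.988), CYBC1 (0.976) and TRPT1 (0.974), for CLDN1 PDE4D (0.977), MPZL2 (0.969) and LPIN2 (0.965), and for TJP3 DNAJB2 (0.973), ACE (0.962) and GOLT1A (0.959). CLDN7 had looser matches, CYP2U1 (0.931), KLC2 (0.865) and ABHD15 (0.843). For CLDN4 they were TNFAIP1 (0.980), AHNAK2 (0.960) and RUSC1-AS1 (0.959), for CLDN12 CEP128, CHD5 and MARCHF7, for OCLN BRPF3 (0.960), SH3D19 and RNFT1, and for TJP1 ZNF91 (0.987), NSF and ZNRF3. Among the 8 genes themselves, CLDN1 and TJP1 ran most alike (r = 0.938) and CLDN3 and CLDN12 most opposite (r = −0.871), over the same 12 groups.

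The 9 genes lie at these places in GRCh38 by the GENCODE annotation. CLDN3 (ENSG00000165215) at chr7:73768997-73770270 and CLDN4 (ENSG00000189143) at chr7:73799542-73832693 are neighbours, and CLDN12 (ENSG00000157224) is at chr7:90383721-90513402. CLDN1 (ENSG00000163347) is at chr3:190305701-190322475, CLDN7 (ENSG00000181885) at chr17:7259903-7263983 and CLDN2 (ENSG00000165376) at chrX:106900164-106930861. OCLN (ENSG00000197822) is at chr5:69492292-69558104, TJP1 (ENSG00000104067) at chr15:29699367-29968865 and TJP3 (ENSG00000105289) at chr19:3708109-3750813. Although CLDN3 and CLDN4 are adjacent, CLDN3 was called higher with Tet2CD in SW480 and CLDN4 was not.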

How the data were processed

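Per the labels and the study's methods, RNA was extracted with TRIzol, libraries were made with a TruSeq kit, reads were trimmed, and genes were quantified with RSEM on Bowtie alignments (the processing notes name Bowtie, the methods bowtie2). The deposited tables hold, per library, the authors' expected counts (RSEM estimates that need not be whole), TPM and FPKM, and FPKM was not used. The processing notes name the mouse build mm10, whereas the gene identifiers are human. A GC normalization is named in the methods but was not seen in the counts, and no source used here gives the counting strand. Where the study's text and the labels differ on ligand and exposure time, the labels were followed.

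Expected counts were rounded and tested with edgeR 4.0.16 (R 4.3.3, TMM scaling, quasi-likelihood test, filterByExpr) in 1 fit over the 12 groups of 24 libraries, with p-values adjusted by Benjamini-Hochberg over 15302 genes. A gene is called where the adjusted p is under 0.05. CPM use the TMM-scaled library total. Library totals of 2146123 to 4410567 set the precision, and floors cover counting error only. Symbols and positions of 32777 of the 33382 genes came from GENCODE, and promoter windows from RefSeq. The scripts were tested on simulated data.

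The text names the 9 junction genes, up to 3 called genes with the smallest p from each list of other claudins, membrane proteins, scaffolds, repressors and activators in a comparison, and the 3 genes most alike to each junction gene, except 1 gene that is not reported here. TGF-beta targets and cell type markers are named as checks only, and genes outside these rules were chosen after their values were seen. The genes and lists were chosen with earlier results of these data known. Alternatives were RLE scaling, no low-count filter, 1 line alone, a GC content offset, a term that splits the library numbers into a low and a high block, DESeq2 1.42.0, limma 3.58.1 on log2(TPM + 0.5), leaving out each library, and leaving out the 3 SW480-Tet2CD libraries numbered replicate 1. Their omission together with the GC offset was added after seeing the data. Replicates were numbered in accession order, and the labels do not say that libraries of the same number belong together.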

Additional observations from a re-analysis of the deposited data

Results flagged for a closer look

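The Tet2CD difference was not the same in both lines for 5 junction genes, in a test where 20.1% of all genes passed. The difference itself was tested, SW480 minus SW620 on the log2 scale (edgeR, adjusted over all genes). CLDN3 (1.80) and TJP3 (0.91) were higher with Tet2CD in SW480 relative to SW620, and CLDN7 (−2.07), CLDN1 (−1.04) and TJP1 (−1.06) lower. The TJP1 call was kept in only 4 of the 24 fits that left out 1 library, and CLDN1 missed the threshold with limma on log2 TPM. TJP3 also differed between the lines in its response to RepSox, by 1.499, where 1.03% of all genes passed. With limma on log2 TPM that TJP3 difference did not pass. The 3 SW480-Tet2CD libraries with shifted GC content enter all of these values, and their part was not tested beyond the fits that leave them out.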

How the results depend on the processing

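Of 36 calls among 136 pairs of gene and comparison, 27 were kept whichever library was left out, 26 under every other alternative and 24 under all, and none changed sign. Of 100 pairs not called, 30 were called under some alternative. For Tet2CD against vector in SW480 with DMSO, 2 genes were called, and 4 without the low-count filter, 0 with SW480 libraries alone, 1 with limma on TPM and 0 to 4 with a library left out. In SW620 with DMSO, 1 was called, and 0 with RLE scaling and 0 to 1 with a library left out. For TGFB1 against DMSO in SW480, 0 were called, and 1 with the GC offset and without the 3 replicate 1 libraries together. In SW620, 3 were called, and 6 with SW620 alone, 5 with the GC offset, 6 without the 3 libraries and 6 with both. For RepSox against DMSO in SW620, 2 were called, and 4 with SW620 alone, 4 without the 3 libraries, 5 with both and 1 to 3 with a library left out. For TGFB1 against RepSox in SW480, 0 were called, and 0 to 2 with a library left out. For the TGFB1 response between lines, 0 were called, and 1 without the filter, 2 with the GC offset, 2 without the 3 libraries, 4 with both, 1 with DESeq2 and 0 to 1 with a library left out. For the RepSox response, 1 was called, and 2 without the filter, 2 with the GC offset, 2 without the 3 libraries, 2 with both, 0 with limma on TPM and 1 to 2 with a library left out. Among the pairs not called, 34 changed sign under some alternative other than leaving out 1 library. The changed sign was past the threshold for CLDN7 with Tet2CD in SW480 (−0.27 without the 3 libraries, −0.41 with both), for TJP1 in SW480-Tet2CD against SW620-Tet2CD (0.33 and 0.52) and for OCLN in the same comparison (0.46 with the GC offset, 0.48 with both). The cause was not tested. No paired analysis was possible because the labels give library numbers but no replicate numbers. A term for the low and high block of library numbers changed 1 of 136 verdicts (TJP1, TGFB1 against RepSox in SW620, adjusted p = 0.0465). Without the 3 libraries each SW480-Tet2CD group has 1 library, assumed to vary like the others. Calls among all genes moved with the fit as well. For Tet2CD against vector in SW480 with DMSO they were 1035 of 15302 with all libraries and 2367 of 26424 without the filter. With SW480 alone they were 196 of 14167, and with limma on TPM 500 of 15302. The TGFB1 response between lines had 317 of 15302, 643 with the GC offset and 399 of 26424 without the filter. The RepSox response had 157 of 15302, 185 with the GC offset, 262 of 26424 without the filter and 43 with limma on TPM. For TGFB1 against DMSO in SW620 they were 2383 of 15302 with all libraries, 3297 with the GC offset and 5761 of 13965 with SW620 alone. For RepSox against DMSO in SW620 they were 717 of 15302 with all libraries and 2861 of 13965 with SW620 alone.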
